A study of Rattus norvegicus with 6 samples.

Results

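The genes described here are the receptors by which myeloid cells read sugars, antibodies, lipids and MHC molecules on other cells and particles: C-type lectins, Siglecs, CD300 molecules, Fc receptors, leukocyte immunoglobulin-like receptors (LILR) and TREM receptors. They were chosen by symbol alone, as every row of the gene table whose symbol begins with Clec and a digit, Siglec, Cd300, Fcgr, Fcer, Lilr, Trem or Pilr. This gave 64 of the 19382 genes: 29 C-type lectins, 5 Siglecs, 7 CD300 genes, 4 Fc gamma receptors, the neonatal Fc receptor Fcgrt, 3 Fc epsilon genes, 9 LILR genes and 6 TREM genes, and no row began with Pilr. Expression was measured by RNA sequencing of brain tissue from SD (Sprague-Dawley) rats, with 3 control libraries and 3 from rats after hypoxia-ischemia (HI). The series' design text states that the HI rats were 7 days old and underwent ischemia with hypoxia for 2.5 h, and the control libraries carry only the label of a control treatment. The age of the controls, the brain region, the time between injury and sampling, and whether each library came from a separate animal are not stated in the labels, and a p-value therefore measures only how far these libraries spread.

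Most of these receptors signal through a short tyrosine motif. Most activating members borrow an ITAM (immunoreceptor tyrosine-based activation motif) from a small adaptor, Tyrobp (DAP12) for TREM2 and several lectins or Fcer1g (the Fc receptor gamma chain) for Fc receptors, and the phosphorylated ITAM recruits the kinase Syk. Inhibitory members carry an ITIM in their own tail, which recruits the phosphatases Ptpn6 (SHP-1), Ptpn11 (SHP-2) and Inpp5d (SHIP1). In brain these receptors are known mainly from microglia and from the macrophages of the meninges, vessels and choroid plexus, where Trem2 and Clec7a are known as genes of microglia that respond to damage and Siglec1 as a gene of border macrophages and of interferon responses.

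Transcription of myeloid receptors depends widely on the factor PU.1, and Siglec1 and several Fc receptors are known targets of interferon signalling. RefSeq promoters of assembly GRCr8, running from 250 bases before to 50 bases after the gene's start, could be matched by gene number for 48 of the 64 genes. Siglec1, Fcgr1a, Fcer1g and Clec10a, all called higher below, and Fcgr2b had no matched promoter and were not searched. This is not the assembly named in the submitters' processing notes, and no coordinate was converted. The PU.1 core GAGGAAGT, searched on both strands, was present in 8 of the 48 (16.7%), against 2.44% of all 27457 promoters in the table. It was in 2 of the 18 whose gene was tested, against 2.50% of all tested genes. Among those called higher it was in 1 of 7, against 4.06% of all genes called higher. Lilrb1, Lilrb3a and Lilrb3l, near identical in the stretches printed below, are among the 8 and are not separate matches. The interferon response core GAAANNGAA, searched likewise, was also in 8 of the 48 (16.7%), against 9.50% of all promoters. It was in 4 of the 18 tested, against 7.06% of all tested genes, and in 2 of the 7 called higher, against 13.8% of all genes called higher. A match is a description of letters and not a binding site.

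The stretches that hold these letters in the genes that matter most below are printed 5′ to 3′ on the gene's strand, with 25 bases on each side and the motif in capitals. Fcgr3a is shown because it rose most among the Fc receptors and holds both cores, and Fcgrt because it is the other of the 7 genes called higher and matched that holds the interferon response core. The PU.1 core of Fcgr3a begins 56 bases before the start and is on the opposite strand (chr13:85782555-85782612, plus strand), and its interferon response core begins 105 bases before the start (chr13:85782506-85782564, plus strand). The core of Fcgrt begins 43 bases before the start (chr1:104720036-104720094, minus strand).
Fcgr3a, PU.1 core: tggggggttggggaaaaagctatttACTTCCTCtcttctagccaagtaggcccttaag
Fcgr3a, interferon response core: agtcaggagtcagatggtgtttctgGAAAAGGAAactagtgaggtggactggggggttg
Fcgrt, interferon response core: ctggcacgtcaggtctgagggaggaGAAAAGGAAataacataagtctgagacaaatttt

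The next set is shown because these LILR genes had almost no reads in the controls and because the stretches are near identical. The stretches lie before the annotated starts, so they do not show how reads divide among the genes. Lilrb1 (chr1:74372713-74372770, plus strand), Lilrb3a, which RefSeq names Pirb (chr1:74414489-74414546, plus strand), and Lilrb3l, which RefSeq names Pira2 (chr1:74331128-74331185, plus strand), hold the PU.1 core within the same run of letters. Over 58 bases Lilrb1 and Lilrb3a differ at 1 base, Lilrb3a and Lilrb3l at 1, and Lilrb1 and Lilrb3l at 2. The core begins 34 bases before the annotated start in Lilrb1, 42 in Lilrb3a and 149 in Lilrb3l. Cd300lf (chr10:100875049-100875106, minus strand), with the core 59 bases before the start, is shown for contrast as a gene outside that cluster.
Lilrb1: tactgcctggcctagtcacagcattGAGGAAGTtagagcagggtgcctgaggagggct
Lilrb3a: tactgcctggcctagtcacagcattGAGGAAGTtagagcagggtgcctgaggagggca
Lilrb3l: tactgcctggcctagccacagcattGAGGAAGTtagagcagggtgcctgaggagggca
Cd300lf: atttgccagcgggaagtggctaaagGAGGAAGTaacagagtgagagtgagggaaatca

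Libraries held between 13922663 and 14927469 reads, so 1 read corresponds to 0.0606 to 0.0757 CPM, the count scaled to library size with TMM factors. At least 1 read was found for 63 of the 64 genes in some library and for 32 in every library. There were 14 genes with no read in any control, and 24 stayed under 10 reads in every library. A count of 0 allows up to 3 reads, which is 0.221 to 0.227 CPM for a control and 0.182 to 0.201 CPM for an HI library, counting error only. Reads were shared with other genes, seen as counts that are not whole, for Fcgr2a, Clec2d2, Clec2dl1, Lilra3, Lilrb1, Lilrb3a, Lilrb3b and Lilrb3l, and their values are uncertain. Of the 62 genes found in the reference annotation 16 overlap another gene, among them Clec7a and Clec1a with a long noncoding RNA, Clec12a with Chtopl1, Cd300lf with Rab37, and Fcgr1a and Fcgr2a with noncoding RNAs. The strand setting of the counting is unknown, so reads of such pairs cannot be told apart.

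Reads summed over the Fc gamma receptors numbered 122, 169 and 176 in the controls, against 354, 817 and 1163 for HI, and those over the LILR genes 2, 3 and 6 against 23, 100 and 97. Of the 64 genes, 27 had enough reads to be tested, and 11 of them were higher in HI and 1 was lower at an adjusted p below 0.05 (edgeR quasi-likelihood test, Benjamini-Hochberg over 14959 genes). Over all tested genes 6.83% were called higher and 7.04% lower. The 11 were Clec7a, Clec12a, Clec4a1, Clec10a, Siglec1, Fcgr1a, Fcgr2a, Fcgr3a, Fcer1g, Fcgrt and Trem2, and the gene called lower was Clec2l. In 18 of the 27 all HI libraries lay above all controls and in 2 all lay below, against 21.5% and 20.8% of all tested genes. The median log2 fold change was 1.56 over the 27 genes and 0.04 over all tested genes, but 8 of the 27 had fewer than 10 reads in every control and so passed the filter only through their HI reads, and the other 37 genes have no fold change, so neither the count nor the median describes the families as a whole. Cd300a, Clec4a3, Clec18a and Siglec15 had fewer than 10 reads in at least 1 control and also needed HI reads to pass.

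**Figure D1:**
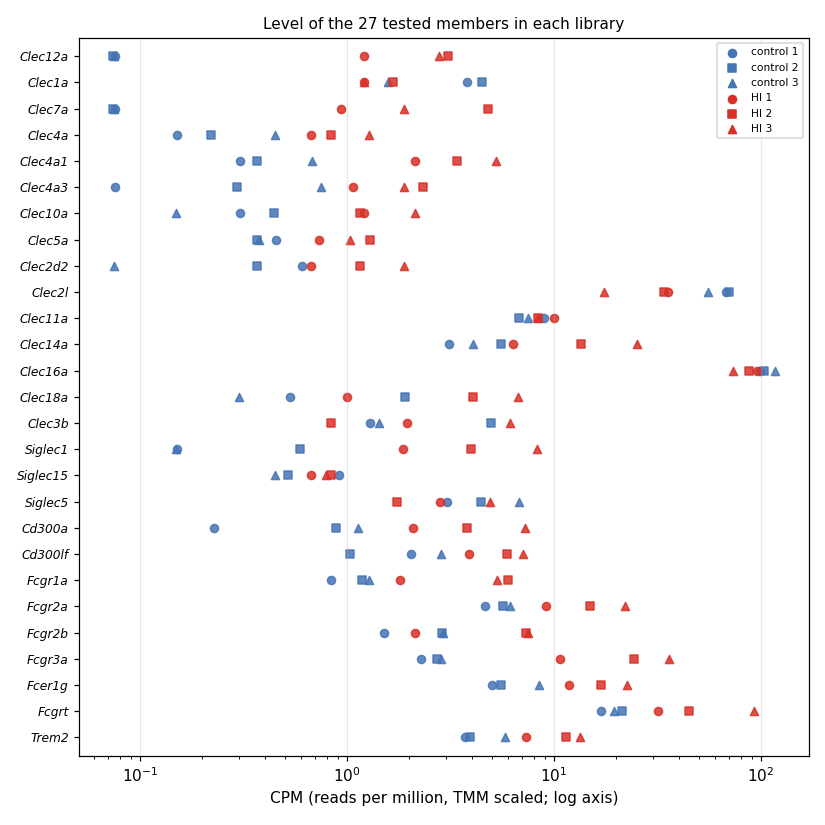
Level of the 27 tested receptor genes in each library, in TMM-scaled CPM on a log axis, with controls in blue and HI in red and a symbol for each replicate number. For Clec12a, Clec7a and Fcgr3a the groups lie far apart, for Siglec15, Siglec5, Clec11a and Clec3b they overlap, and HI 1 is the lowest HI library in 21 of the 27.

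The calls depend on single libraries. Without control 1, without control 2 or without HI 2, edgeR called 0 of these genes higher, although 20, 18 and 15 had an unadjusted p below 0.05. Each of those fits also called 0 genes higher over the whole table, so the loss is not particular to the receptors. Without HI 3 it called 3 (Clec12a, Clec7a and Fcgr3a), without control 3 it called 6 (those 3 with Clec4a1, Fcer1g and Trem2), and without HI 1 it called 18. Over all genes the same fits called 245 of 15079, 608 of 15335 and 2097 of 15265 higher. Fits without HI 2 or HI 3 tested 27 receptor genes, and those without any other library tested 30. All 12 called genes kept their direction in each of these fits. Their groups did not overlap and they were picked by their calls, so leaving out 1 library could hardly have reversed them. With limma-voom 4 were called higher (Clec7a, Clec12a, Clec4a1 and Clec10a). DESeq2 called 19, but 4 of these had too few reads for the main test. Over all genes limma-voom called 552 of 14959 higher and DESeq2 2055 of 16431. HI 1 was the lowest HI library for 10 of the 11 genes called higher and HI 3 the highest for 8, as they were for 79.8% and 81.6% of all genes called higher. With total counts in place of TMM the median log2 fold change of all genes moved from 0.04 to 0.23 and the share of calls that were higher from 49.2% to 74.7% (64.3% with upper-quartile factors), with 15 and 12 of the receptor genes called higher.

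Other cell types also differed between the libraries. For scale, 6.83% of all tested genes were called higher and 7.04% lower. Of 13 tested microglial markers 8 were called higher and the list's median log2 fold change was 1.23, with a summed level of 186 to 270 CPM in controls and 417 to 679 CPM in HI. Of 6 tested border macrophage markers 2 were called (Folr2 and Mrc1), with sums of 18.6 to 39.0 CPM and 47.0 to 98.3 CPM. Neutrophil markers were near the floor, with 8 of 11 under 10 reads in every library and Retnlg at 0 throughout; their sum of 3.97 to 4.71 CPM in controls and 8.89 to 38.4 CPM in HI came mainly from Csf3r, called higher, and Lcn2, with 14, 27 and 13 reads in controls and 22, 183 and 426 in HI. Of 5 tested monocyte and dendritic cell markers, Itgax and Plac8 were called higher and Flt3 lower (sums of 128 to 198 CPM and 116 to 141 CPM). These sums came mainly from Vcan, with 111 to 160 CPM in controls and 78.4 to 113 CPM in HI, which was not called. T and NK cell markers had at most 3 reads and B cell markers at most 12 in any library, so none was tested. In brain tissue more cells of a type and more RNA per cell cannot be told apart, and the part of any cell type in the results below was not tested.

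Clec7a and Clec12a, lectins of the Dectin-1 cluster, had the largest fitted fold changes of the 27 tested genes, but on control counts so low that their intervals reach below the fitted fold of Siglec1 (15.4). Clec7a, Dectin-1, which binds beta-glucans and signals through a single tyrosine motif of its own to Syk, had 1 read in each control (0.0757, 0.0736 and 0.0749 CPM) and 14, 75 and 31 reads in HI (0.936, 4.82 and 1.88 CPM). Clec12a, an ITIM-bearing inhibitory lectin known to sense uric acid crystals from dead cells, likewise had 1 read in each control and 18, 48 and 46 reads in HI (1.20, 3.08 and 2.79 CPM). Both genes were thus near the limit of detection in every control and above it in every HI library, with HI 2 the highest for each. The log2 fold change was 4.94 ± 0.85 (SE) for Clec7a (adjusted p = 0.0247) and 4.83 ± 0.60 for Clec12a (adjusted p = 0.0208). Since these rest on 3 control reads, the ratio of the groups' summed reads, each scaled to TMM library size, is given with its exact 95% counting interval, 34.1 (11.4 to 168) for Clec7a and 31.9 (10.6 to 157) for Clec12a. Without HI 2 the log2 fold change of Clec7a was 4.09.

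Clec1a, a lectin known from endothelium and dendritic cells that lies beside Clec7a, did not pass the test. Its level was 3.79, 4.49 and 1.57 CPM in the controls and 1.20, 1.67 and 1.21 CPM in HI (log2 fold change -1.26 ± 0.45, adjusted p = 0.0952). Control 3 lay among the HI libraries and the other controls above them, and without control 3 the adjusted p was 0.0412. The endothelial markers as a whole summed to 192 to 254 CPM in controls and 216 to 470 CPM in HI. Of the 9, Cdh5 and Egfl7 were called higher, against 6.83% of all tested genes. Low neighbours in the cluster were Clec9a, the receptor of cross-presenting dendritic cells for exposed actin, with 2, 4 and 3 reads in controls and 2, 3 and 0 in HI, and Clec12b, with 2, 2 and 3 against 2, 2 and 1. Clec1b, known from platelets, had 1 read in all, and of 6 platelet markers 4 stayed under 10 reads in every library and the 1 tested, Itga2b, was not called (adjusted p = 0.0652).

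In the Dectin-2 and DCIR cluster all 3 tested genes lay higher in every HI library than in every control, and 1 was called. Clec4a1, a DCIR family member, measured 0.303, 0.368 and 0.674 CPM in the controls and 2.14, 3.41 and 5.21 CPM in HI, and it rose by a log2 fold change of 2.98 ± 0.50 (adjusted p = 0.0239). Clec4a3 had 0.0757, 0.295 and 0.749 CPM against 1.07, 2.31 and 1.88 CPM (2.21 ± 0.70, adjusted p = 0.0746), and Clec4a, the inhibitory DCIR, 0.151, 0.221 and 0.449 CPM against 0.669, 0.835 and 1.27 CPM (1.73 ± 0.54, adjusted p = 0.0739). The last pair did not pass the threshold, and control 3 was the highest control for all 3 genes. Clec4e (Mincle), the sensor of the dead-cell protein SAP130, had 1 read in all 6 libraries together and Clec4d, its partner, had 2, so no response of that pair was detectable at this depth.

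Clec10a, the galactose-type lectin of macrophages and dendritic cells, rose from 0.303, 0.442 and 0.150 CPM to 1.20, 1.16 and 2.12 CPM (log2 fold change 2.29 ± 0.51, adjusted p = 0.0375). Clec5a, which pairs with Tyrobp, had 0.454, 0.368 and 0.374 CPM in controls and 0.736, 1.29 and 1.03 CPM in HI, groups that do not overlap, with a log2 fold change of 1.33 ± 0.40 that missed the threshold (adjusted p = 0.0683). Clec4f and Clec4g, lectins known from liver macrophages and sinusoidal endothelium, had 1 and 2 reads in all.

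Clec2l was the single receptor gene called lower. It encodes a brain-associated lectin, with 67.3, 69.9 and 55.4 CPM in the controls and 35.4, 34.1 and 17.5 CPM in HI (log2 fold change -1.15 ± 0.27, adjusted p = 0.0424). HI 3 was the lowest library and no HI library reached a control. Neuron markers were also lower in HI, with a sum of 6622 to 8379 CPM in controls and 2671 to 4788 CPM in HI. Of these markers 4 of 8 were called lower, against 7.04% of all tested genes. Clec2d2, whose reads are shared, measured 0.606, 0.368 and 0.0749 CPM against 0.669, 1.16 and 1.88 CPM (1.80 ± 0.70, adjusted p = 0.118), and its relative Clec2dl1 had 1, 0 and 0 reads against 8, 11 and 5. Clec2e held 12 reads over all libraries with at most 3 in any one, and Clec2d, Clec2g and Clec2h 6, 4 and 2 reads.

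A further 6 genes carry a Clec symbol but encode proteins of other cells, and none of the 5 tested passed the threshold. Clec14a, an endothelial cell surface protein, measured 3.10, 5.52 and 4.04 CPM in controls and 6.35, 13.4 and 25.02 CPM in HI (log2 fold change 1.82 ± 0.51, adjusted p = 0.0596). Of the 9 endothelial markers 4 likewise lay above every control in all HI libraries, against 21.5% of all tested genes, and the other 5 overlapped. Clec16a, a regulator of endosomes and mitophagy, was 98.4, 104 and 117 CPM against 96.0, 87.4 and 73.3 CPM (-0.31 ± 0.13, adjusted p = 0.136), below every control in each HI library by a small margin. Clec11a, a secreted growth factor, did not separate the groups, with 8.94, 6.77 and 7.49 CPM against 9.96, 8.35 and 8.36 CPM (0.20 ± 0.19, adjusted p = 0.485).

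For the secreted proteins Clec18a and Clec3b the groups overlapped. Clec18a had 7, 26 and 4 reads in controls and 15, 63 and 111 in HI (0.530, 1.91 and 0.299 CPM against 1.003, 4.05 and 6.72 CPM; log2 fold change 2.09 ± 0.88, adjusted p = 0.139). Choroid plexus markers differed far more between libraries of 1 group, with sums of 22.7, 2166 and 13.9 CPM in the controls and 186, 8121 and 15224 CPM in HI, and Clec18a had the same order of libraries. Its HI order is common. HI 1 was lowest for 42.1% of all tested genes and 79.8% of those called higher, and HI 3 highest for 42.0% and 81.6%. A part of the choroid plexus in the values of Clec18a was not tested. Clec3b (tetranectin) measured 1.29, 4.93 and 1.42 CPM against 1.94, 0.835 and 6.12 CPM (0.22 ± 0.84, adjusted p = 0.868), and the sign of its change differed in 3 of the 14 other fits. Clec3a had 3, 1 and 0 reads in controls and 0 in each HI library.

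**Figure D2:**
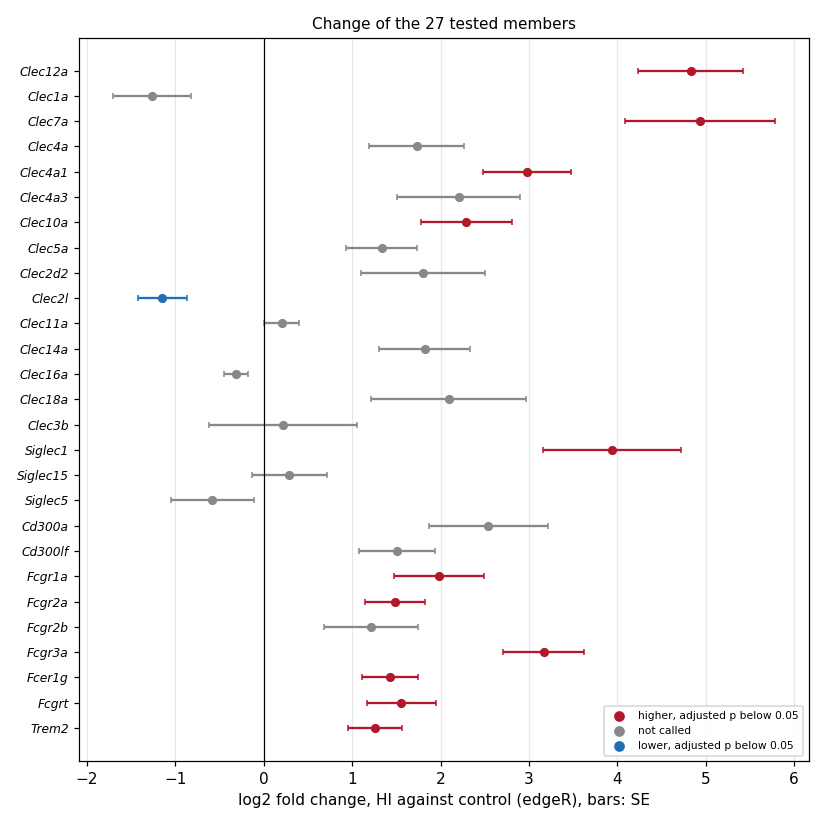
Fitted log2 fold change (HI against control) of the 27 tested receptor genes with its SE, from edgeR on all 6 libraries, with genes called higher in red, lower in blue and not called in grey. The changes called run from -1.15 for Clec2l to 4.94 for Clec7a, and the grey points from Cd300a (2.54) down to Clec5a (1.33) lie above 0 by more than their SE without passing the threshold.

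Among the Siglecs, receptors for sialic acid, 1 of 3 tested genes was called. Siglec1 (sialoadhesin), which binds sialylated particles on macrophages, had 2, 8 and 2 reads in controls and 28, 62 and 136 in HI (0.151, 0.589 and 0.150 CPM against 1.87, 3.98 and 8.24 CPM). It rose by a log2 fold change of 3.94 ± 0.78 (adjusted p = 0.0307), with a spread of several-fold among both the controls and the HI libraries. Without control 2 the log2 fold change was 4.85 and without HI 3 it was 3.26. Among the HI libraries Siglec1 stood in the same order as the choroid plexus markers, whose sums are given with Clec18a, and control 2 was the highest control for both. Controls 1 and 3 tied at 2 reads. The HI order is common, HI 1 being lowest for 79.8% and HI 3 highest for 81.6% of all genes called higher. The part of the choroid plexus in the result was not tested. Siglec5, a CD33-related Siglec, measured 3.03, 4.42 and 6.74 CPM against 2.81, 1.74 and 4.91 CPM (-0.58 ± 0.47, adjusted p = 0.405), and Siglec15, which pairs with Tyrobp and is best known from osteoclasts, 0.909, 0.515 and 0.449 CPM against 0.669, 0.835 and 0.788 CPM (0.29 ± 0.42, adjusted p = 0.648). The groups overlapped for both. Siglec10 had 0, 3 and 1 reads against 1, 5 and 10, and Siglech, used as a microglial marker in the mouse, had 0 reads in every control and 1, 1 and 0 in HI, which is at the floor in all 6 libraries.

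CD300 receptors bind lipids of dying cells, among them phosphatidylserine. Cd300a, an inhibitory member, had 3, 12 and 15 reads in controls and 31, 59 and 120 in HI (0.227, 0.884 and 1.12 CPM against 2.07, 3.79 and 7.27 CPM), with a log2 fold change of 2.54 ± 0.68 and an adjusted p of 0.0531. Cd300lf, also ITIM-bearing, measured 2.04, 1.03 and 2.85 CPM against 3.88, 5.91 and 7.09 CPM (1.51 ± 0.43, adjusted p = 0.0608). Each lay above every control in all HI libraries but missed the threshold, and DESeq2 placed them at adjusted p = 0.00402 and 0.0113. The other 5 were too low to test: Cd300le had 1, 2 and 1 reads against 6, 5 and 16, Cd300e 0, 0 and 0 against 3, 0 and 11, and Cd300ld 0, 0 and 0 against 10, 1 and 3. Cd300lg, known from endothelium, was found mainly in control 2 and HI 3 (0, 8 and 0 against 0, 1 and 13), and Cd300lb had 1 read.

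The Fc gamma receptors, which bind IgG, could all be tested, and 3 of the 4 were called higher. Fcgr3a, a low-affinity activating receptor that signals through Fcer1g, had 30, 37 and 38 reads in controls and 159, 379 and 590 in HI (2.27, 2.72 and 2.85 CPM against 10.6, 24.4 and 35.7 CPM). It rose 8.997-fold (log2 fold change 3.17 ± 0.46, adjusted p = 0.0215), and the lowest HI library was well above the highest control. Fcgr1a, the high-affinity receptor, rose from 0.833, 1.18 and 1.27 CPM to 1.81, 5.98 and 5.27 CPM (1.98 ± 0.51, adjusted p = 0.0482), HI 1 lying just above the controls. Fcgr2a, a low-affinity receptor with shared reads, rose from 4.62, 5.67 and 6.14 CPM to 9.09, 14.8 and 21.9 CPM (1.48 ± 0.34, adjusted p = 0.0391).

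Fcgr2b, the inhibitory member of the family, did not pass the test. It measured 1.51, 2.87 and 2.92 CPM in controls and 2.14, 7.33 and 7.51 CPM in HI (log2 fold change 1.21 ± 0.53, adjusted p = 0.152), HI 1 lying within the range of the controls. To set activating against inhibitory receptors within a library, reads were divided by those of Fcgr2b, a choice made after the values were seen and so given without a test. The quotient of Fcgr3a was 1.5, 0.949 and 0.974 in controls and 4.97, 3.32 and 4.76 in HI, and that of Fcgr1a 0.550, 0.410 and 0.436 against 0.844, 0.816 and 0.702, both higher in every HI library. For Fcgr2a the groups overlapped, with 3.05, 1.97 and 2.103 against 4.25, 2.03 and 2.92. As the quotient is of reads and not per length, only its change between libraries can be read, not its size.

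Fcer1g, the gamma chain that carries the ITAM for Fc receptors, rose from 4.998, 5.52 and 8.46 CPM to 11.8, 16.8 and 22.5 CPM (log2 fold change 1.43 ± 0.32, adjusted p = 0.0367). The gene that gives the IgE receptor its name was not seen beside it: Fcer1a, the IgE-binding alpha chain of mast cells and basophils, had 0 reads in all 6 libraries, and Fcer2, the low-affinity IgE receptor of B cells, had 1 read. Of 9 mast cell markers 3 were tested, with adjusted p between 0.103 and 0.931, and the beta chain of the IgE receptor, Ms4a2, had 6, 4 and 1 reads in controls and 6, 0 and 0 in HI. Fcgrt, the neonatal Fc receptor, recycles IgG and albumin in endothelium, epithelium and macrophages and does not signal through an ITAM. It rose from 16.8, 21.3 and 19.5 CPM to 31.9, 44.8 and 92.5 CPM (1.56 ± 0.39, adjusted p = 0.0467), with HI 3 well above the other HI libraries.

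The LILR genes, receptors for MHC class I, were too low for the test in all 9 cases, and their reads are given instead. Lilrb3l had 1, 1 and 4 reads in controls and 9, 50 and 39 in HI, Lilrb3a (Pirb) 0, 0 and 1 against 2, 13 and 16, and Lilrb3b 0, 0 and 1 against 2, 13 and 7. Lilrb1 had 0 in every control and 2, 8 and 4 in HI, and Lilra3 was found only in HI 3, with 10 reads. These 5 genes have shared reads, so the division among them is uncertain. Their transcribed sequences were not compared. Lilrb4, an inhibitory member whose reads are not shared, had 0 in every control and 4, 11 and 12 in HI, at least 2.53-fold higher against 3 reads per control library. Lilra5, Lilrb3 and Lilrc2 had 8, 8 and 5 reads over all libraries. With no filter on low counts edgeR called Lilrb3l (adjusted p = 0.0421) and Lilrb4 (adjusted p = 0.0454) higher, and DESeq2 called both of these with Lilrb3a and Clec2dl1.

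**Figure D3:**
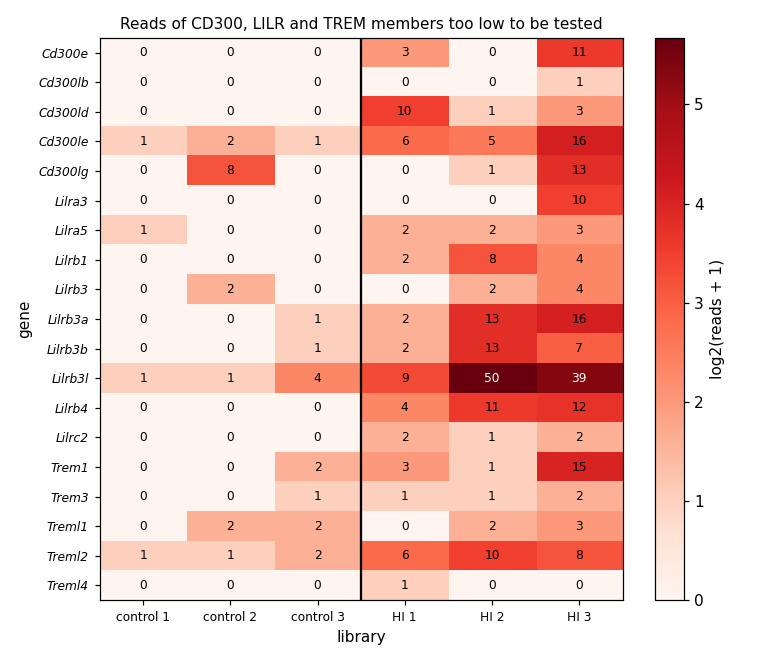
Reads in each library (rounded estimated counts, printed in the cells; colour is log2 of reads plus 1) for the CD300, LILR and TREM genes with too few reads to be tested. Most cells left of the line (controls) hold 0 to 2 reads, and Lilrb3l reaches 50 and 39 reads in HI 2 and HI 3.

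Of the TREM receptors only Trem2 was abundant enough to test. TREM2 binds lipids and lipoproteins on microglia and signals through Tyrobp. It rose from 3.71, 3.90 and 5.77 CPM to 7.29, 11.4 and 13.4 CPM (log2 fold change 1.26 ± 0.31, adjusted p = 0.0442), with no overlap between the groups. Trem1, the amplifying receptor of neutrophils and monocytes, had 0, 0 and 2 reads against 3, 1 and 15. Treml2 had 1, 1 and 2 against 6, 10 and 8, and Trem3, Treml1 and Treml4 had 5, 9 and 1 reads in all.

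Because 8 of the 13 tested microglial markers rose, the 21 tested receptor genes other than Clec2l and the proteins of other cells were also expressed per 100 reads of Csf1r, the growth factor receptor of microglia and macrophages, in the same library. This scale and its genes were chosen after the values were seen, it carries no test, and Csf1r itself rose (log2 fold change 1.23 ± 0.23, adjusted p = 0.0282). On it Trem2 did not separate the groups, with 8.61, 8.73 and 9.06 in controls and 8.03, 9.91 and 8.90 in HI, and Fcer1g overlapped narrowly, with 11.6, 12.4 and 13.3 against 12.96, 14.6 and 15.0. Fcgr3a stayed higher in every HI library, with 5.27, 6.10 and 4.47 against 11.7, 21.2 and 23.8, as did Clec7a, Clec12a, Siglec1, Clec4a1, Cd300a, Clec4a3, Clec10a and Clec4a, for Clec4a3, Clec10a and Clec4a by a narrow margin.

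Thus 9 of 21 lay above every control per Csf1r read, against 2.18% of all tested genes, 2 lay below, against 75% of all tested genes, and 10 overlapped. Of the 9, 6 had fewer than 10 reads in every control and had passed the filter through their HI reads alone. Cd300a and Clec4a3, with 3, 12 and 15 and with 1, 4 and 10 control reads, also needed HI reads to pass. The count therefore lends no support to a difference from other genes. The 2 below were Clec1a and Siglec5, the latter with 7.03, 9.88 and 10.6 per 100 Csf1r reads in controls and 3.09, 1.51 and 3.26 in HI. Microglial markers set on the same scale differed in direction: the complement gene C1qa had 20.2, 18.1 and 25.8 in controls and 48.4, 51.1 and 52.3 in HI, and the purine receptor gene P2ry12 had 26.7, 25.9 and 26.5 against 15.2, 8.17 and 8.78. The CPM of P2ry12 gave a log2 fold change of -0.13 ± 0.24 (adjusted p = 0.714). With Cx3cr1 in place of Csf1r 5 genes lay above every control (Clec7a, Clec12a, Siglec1, Fcgr3a and Clec4a1), against 1.74% of all tested genes, and 3 below, against 75.5%.

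**Figure D4:**
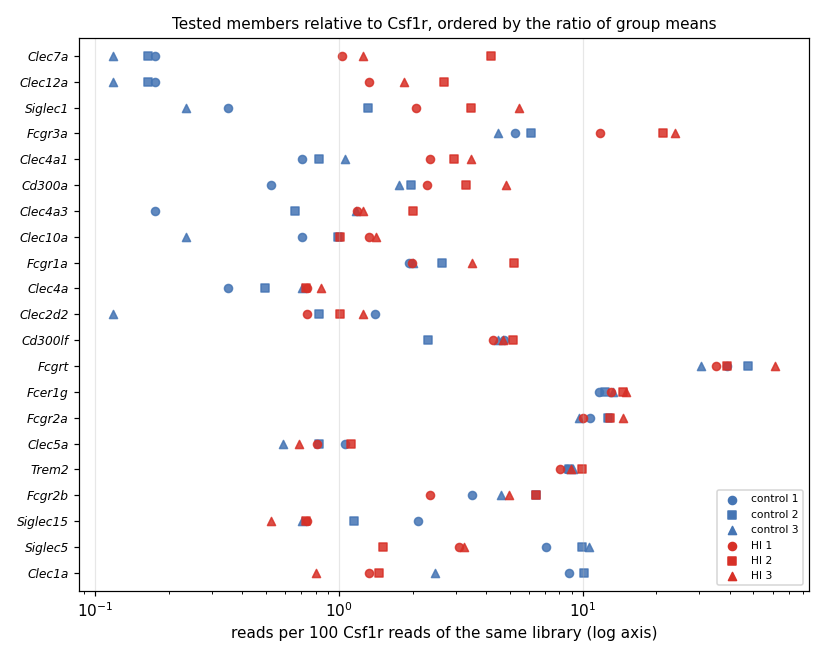
Reads of 21 tested receptor genes per 100 Csf1r reads of the same library, on a log axis, with controls in blue and HI in red, ordered by the ratio of the group means. Clec7a, Clec12a, Siglec1 and Fcgr3a at the top keep their groups apart, Trem2, Fcgr2a and Fcgrt overlap, and Siglec5 and Clec1a at the bottom are lower in HI.

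Genes that carry the receptors' signals inward were mostly higher as well. Of 27 adaptors, kinases, scaffolds and phosphatases of ITAM and ITIM signalling 26 were tested and 16 were called higher, with the others not called, a median log2 fold change of 1.37 and 20 with every HI library above every control. Over all tested genes 6.83% were called higher, 21.5% had every HI library above every control, and the median log2 fold change was 0.04. As with the receptors, the count of signalling genes called higher was 0 in edgeR without control 1, without control 2 or without HI 2 (19, 18 and 19 at an unadjusted p below 0.05) and 4 without HI 3. Over the whole table those fits called 0, 0, 0 and 245 genes higher. Tyrobp, the ITAM adaptor of Trem2 and Clec5a, rose from 2.65, 2.80 and 4.34 CPM to 7.29, 13.9 and 20.6 CPM (2.09 ± 0.43, adjusted p = 0.0318). Per 100 Csf1r reads it remained higher in each HI library, with 6.15, 6.26 and 6.82 against 8.03, 12.2 and 13.7, whereas for its partner Trem2 the groups overlapped. On that scale 2.18% of all tested genes lay above every control. Tyrobp was the only signalling gene set on it, so its values do not describe the rest of the list. The other small adaptor, Hcst (DAP10), had 0, 1 and 0 reads in controls and 2, 4 and 3 in HI.

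Both sides of the pathway were represented among the genes with the smallest p. On the activating side, Lat2, a scaffold of Fc receptor signalling, rose from 0.984, 0.957 and 1.27 CPM to 4.35, 7.33 and 6.24 CPM (log2 fold change 2.47 ± 0.31, adjusted p = 0.0215). The adaptor Lcp2 (SLP-76) rose by 1.96 ± 0.30 (adjusted p = 0.0226), the PI3-kinase adaptor Pik3ap1 by 1.88 ± 0.30 (adjusted p = 0.0235), phospholipase Plcg2 by 1.68 ± 0.28 (adjusted p = 0.0239) and the exchange factor Vav1 by 2.37 ± 0.43 (adjusted p = 0.0267). On the inhibitory side, Ptpn6 rose from 3.63, 4.64 and 6.29 CPM to 15.7, 24.4 and 29.8 CPM (2.26 ± 0.32, adjusted p = 0.0215). All HI libraries lay above all controls for each of these genes. Syk and Inpp5d, named here for their place in the pathway after their values were seen, rose by 0.98 ± 0.23 (adjusted p = 0.0392) and 1.39 ± 0.26 (adjusted p = 0.0282). Dok1, an adaptor that dampens kinase signalling, and Vav3 missed the threshold (1.74 ± 0.47, adjusted p = 0.0537, and 1.17 ± 0.33, adjusted p = 0.0597).

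**Figure D5:**
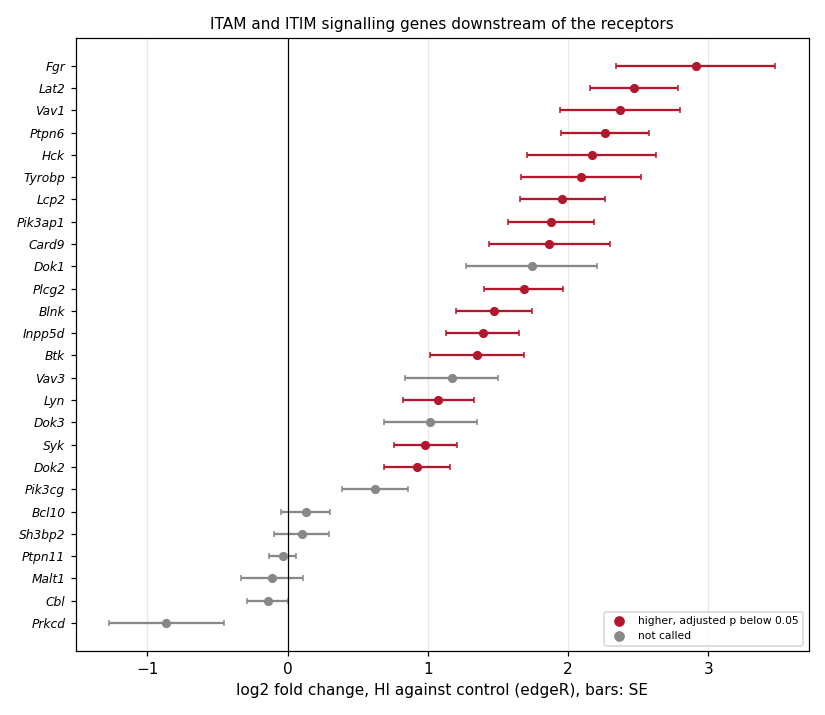
Fitted log2 fold change (HI against control, edgeR) with its SE for the 26 tested genes of ITAM and ITIM signalling, with genes called higher in red and not called in grey. The 16 red points reach from 0.92 for Dok2 to 2.91 for Fgr, and Ptpn11, Malt1, Bcl10, Cbl and Sh3bp2 lie near 0.

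Related receptors that the symbols do not catch were examined for comparison. Of 19 such genes found, 16 were tested, 5 were called higher, against 6.83% of all tested genes, and the median log2 fold change was 1.101. The sugar-binding galectin Lgals3 had 2.12, 0.736 and 0.674 CPM in controls and 24.5, 62.3 and 96.3 CPM in HI (5.69 ± 0.69, adjusted p = 0.0207), and the scavenger receptor Msr1 0.151, 0.663 and 0.524 CPM against 3.28, 12.98 and 12.5 CPM (4.40 ± 0.72, adjusted p = 0.0238). Of the Siglecs that lack the family symbol, Cd33 rose from 3.79, 3.31 and 4.79 CPM to 9.16, 14.01 and 14.5 CPM (1.66 ± 0.26, adjusted p = 0.0232), while Cd22 (0.67 ± 0.22, adjusted p = 0.0857) and the myelin Siglec Mag (-1.14 ± 0.35, adjusted p = 0.0690) were not called. The inhibitory receptor Cd200r1 and the mannose receptor Mrc1 rose by 2.19 ± 0.45 (adjusted p = 0.0321) and 2.01 ± 0.46 (adjusted p = 0.0383). The scavenger receptors Cd68 and Cd36 missed the threshold (2.50 ± 0.65, adjusted p = 0.0512, and 1.51 ± 0.41, adjusted p = 0.0548), and the reads of Cd36 are shared.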

How the data were processed

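Per the labels' protocols, TRIzol was used for RNA and a SMARTER kit for the libraries. The submitters' processing notes name the assembly Rnor 6.0 and, as tools, StringTie 2.2.1, HISAT2 2.1.0 and SAMtools 1.10. How reads were counted, with which annotation and strand setting, is not given in the sources used here. Values as deposited by the authors are unscaled estimated counts, some of them not whole. They were rounded here, filtered with filterByExpr (minimum count 10), scaled by TMM and tested with the edgeR 4.0.16 quasi-likelihood F test (R 4.3.3), two-sided, on 3 libraries a group with no covariate, Benjamini-Hochberg adjustment over 14959 genes and a threshold of 0.05. The common biological coefficient of variation was 0.275. Fold changes are those of the fit and the SE was derived from F. Levels are CPM with TMM factors of 0.922 to 0.960 in controls and 1.045 to 1.107 in HI. Intervals and floors (3 reads) cover counting error only, and amplified reads without molecular identifiers are not independent molecules.

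Every tested receptor gene is named, untested ones with at least 10 reads are named with their reads, and from the lists of signalling genes and related receptors up to 6 called genes with the smallest p and up to 2 not called are named. Beyond that rule the text also names Tyrobp, Hcst, Syk, Inpp5d, Cd22 and Mag, and a caption names others. The members, the 13 lists of other genes, the tests and the alternatives were chosen with earlier results of these data known. Alternatives were other scalings, filters and thresholds, DESeq2 1.42.0, limma-voom (limma 3.58.1), a replicate block and leaving out each library. The code was tested on simulated counts. Promoters are from RefSeq (GRCr8). A planned search of the receptor proteins for ITAM and ITIM letters was not run, as protein sequences were not used here.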

Additional observations from a re-analysis of the deposited data

How the results depend on the processing

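All 12 receptor genes called kept their direction in each of the 14 other fits they entered. As their groups did not overlap and they were picked by their calls, a reversal was hardly possible, so this lends the calls no support. The count called higher, 11 with the main settings, was 11 with DESeq2's size factors, 12 with upper-quartile factors, 15 with total counts, 12 without a filter on low counts (2 of them not tested with the main settings), 10 with a filter of 1 CPM, 19 with DESeq2 (4 of them not tested with the main settings), 4 with limma-voom and 17 at a threshold of 0.1. The count called lower, 1 in each of those fits, was 2 at a threshold of 0.1. For the 26 signalling genes, 16 of which were called, limma-voom called 8. With 1 library left out the counts ran from 0 to 18 for receptors higher, 0 to 1 for receptors lower and 0 to 16 for signalling genes higher; without control 3 the receptor gene called lower was Clec1a in place of Clec2l. Over all genes 2074 were called, but leaving out control 1, 2 or 3 gave 0, 1 and 1694, and leaving out HI 1, 2 or 3 gave 3689, 0 and 644. The receptor genes above every control per 100 Csf1r reads, 9 in number, became 5 with Cx3cr1 as reference, a change added after the data were seen. The cause of these differences was not tested.

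No label says what the replicate numbers mark, and the correlations of same-numbered libraries' deviations were 0.22, 0.0858 and -0.156, so the numbers were not taken to pair them. With the replicate block 9 receptor genes were called higher, 8 of them among the 11, and 1 lower. Clec10a (adjusted p = 0.0845), Fcgr1a (adjusted p = 0.0510) and Fcgrt (adjusted p = 0.0569) lost their calls, and 11 signalling genes were called higher. Depth limits the 37 untested genes, 24 of which had fewer than 10 reads in every library.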

Other observations

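Granule genes of mast cells overlapped between the groups and differed widely within them. Cma1, a chymase of mast cell granules, had 27, 1 and 0 control reads against 29, 4 and 6 for HI, Cpa3 had 45, 8 and 3 against 34, 13 and 12, and Tpsab1 had 9, 2 and 0 against 21, 5 and 2. Control 1 and HI 1 were thus highest in their groups for all 3 genes, in the same tissue in which Fcer1a had no read in any library. Hdc, a mast cell marker of the same list that other cells also express, had 20, 11 and 7 against 32, 25 and 110, above every control in each HI library and highest in HI 3 (edgeR adjusted p = 0.103). The genes were picked after their values were seen.

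Flt3 and Itgax, both from the monocyte and dendritic cell list, moved in opposite directions. Flt3, the growth factor receptor of dendritic cell precursors, had 80, 93 and 62 reads in the control libraries, against 14, 30 and 34 after HI, and was called lower (edgeR log2 fold change -1.83, adjusted p = 0.0313). Itgax, the integrin CD11c, had 0, 1 and 1 reads in controls and 16, 140 and 88 in HI and was called higher (adjusted p = 0.0247). The values of Flt3 and Itgax stand here because Clec9a and Siglech, lectins of dendritic cells, stayed at or near the floor in all 6 libraries. Of the same list, Batf3, too low to test, had 0, 0 and 2 reads against 7, 25 and 21. Xcr1 and Ccr7 had at most 2 reads in any library. Which cells expressed these genes was not tested.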
